A study of Mus musculus with 24 samples.

Results

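The genes described here encode calmodulin and the protein kinases that calmodulin activates, as measured by bulk RNA sequencing of cultured mouse muscle. The 9 members were chosen by name: the Ca2+/calmodulin-dependent kinase II genes Camk2a, Camk2b, Camk2d, and Camk2g, the kinase I genes Camk1 and Camk1d, the upstream kinase gene Camkk2, and the calmodulin genes Calm2 and Calm3. They are 9 of the 56941 genes in the deposited tables, and all 9 were among the 13318 genes that passed the filter on low counts. The muscle was grown from C2C12, a mouse myoblast line, carrying ChR2::tdTomato, a blue light-gated channel joined to a red fluorescent protein. In every condition the cells were seeded on grooved fibrin hydrogels and differentiated in medium with horse serum and the growth factor IGF-1. Light pulses were delivered daily, over 30 min, at 1, 4, or 10 Hz, and control tissues received none, with 6 libraries in each of the 4 conditions and 24 in all. As a model this is 1 cell line without nerve, and the study describes spontaneous contraction of such tissues, so the control was unstimulated but not still.

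When a muscle fiber contracts, Ca2+ released into the cytosol binds calmodulin, and loaded calmodulin opens the kinases by displacing the segment that covers their active site. Kinase II forms large rings whose subunits phosphorylate one another on a threonine of that segment, which keeps them active after Ca2+ has fallen. Kinase I instead needs to be phosphorylated by an upstream kinase such as the product of Camkk2, and targets of the family include regulators of muscle gene expression. In skeletal muscle the Camk2a locus is also known to give αKAP, an anchoring protein without a kinase domain, which counts per gene do not separate from the kinase.

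The calmodulin genes and the kinase II genes are shown by a short coding stretch each, because the results below depend on telling such similar genes apart. The calmodulin genes encode proteins of 149 residues that were 100% identical between Calm2 and Calm3, so only the bases of their transcripts distinguish them. The stretches of 60 bases below are codons 13 to 32 of the calmodulin genes, in exon 3, on GRCm39 (GENCODE annotation), written 5′ to 3′ on the coding strand. Capitals mark the 12 bases that differ between these genes, and the encoded residues were the same in each. The stretches lie at chr17:87743301-87743360 (minus strand) and chr7:16651592-16651651 (minus strand).
Calm2: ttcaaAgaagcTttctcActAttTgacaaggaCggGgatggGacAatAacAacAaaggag
Calm3: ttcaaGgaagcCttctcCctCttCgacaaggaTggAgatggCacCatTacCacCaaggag

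For kinase II, the stretches are codons 282 to 301 in exon 11, which span the threonine that the subunits phosphorylate (position 287 in these 3 proteins). Capitals mark the 23 bases not shared by all 3 genes. They lie at chr3:126591375-126591434 (plus strand), chr11:5938955-5939014 (minus strand), and chr14:20810465-20810524 (minus strand).
Camk2d: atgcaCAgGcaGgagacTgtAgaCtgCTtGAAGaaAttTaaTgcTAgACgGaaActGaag
Camk2b: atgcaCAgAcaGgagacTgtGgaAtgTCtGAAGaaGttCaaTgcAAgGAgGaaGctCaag
Camk2g: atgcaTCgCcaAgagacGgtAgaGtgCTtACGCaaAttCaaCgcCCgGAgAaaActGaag
Aligned kinase II proteins were 84.5% to 90.1% identical between pairs of the 4 genes. Of all 50-base windows in the canonical transcripts, none of Camk2b, Camk2d, Camk2g, Camk1, Camk1d, or Camkk2 occurred in a transcript of another gene. For Camk2a, 23 of 5138 windows (0.448%) did. Reads of 50 bases could be shared more often for Calm2, with 147 of 1167 windows (12.6%) also in the predicted genes Gm7308, Gm15720, and Gm14480, and for Calm3, with 62 of 2358 windows (2.63%) also in Gm5881, so the counts of both carry this uncertainty.

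In unstimulated tissue the members covered a wide range of TPM, a transcript level scaled to a fixed library sum and corrected for transcript length that allows genes to be compared. Calm2 was the highest at 493 ± 27.2 TPM (SD, n = 6), followed by Calm3 at 108 ± 11.6 TPM. Among the kinases the order was Camk2g at 68.5 ± 6.13 TPM, Camk1 at 44.3 ± 3.44 TPM, Camk2d at 31.2 ± 6.78 TPM, Camk2a at 24.7 ± 5.15 TPM, Camk2b at 12.5 ± 0.964 TPM, Camkk2 at 7.87 ± 1.20 TPM, and Camk1d at 0.509 ± 0.241 TPM. Neighbors in this order overlapped between libraries only for Camk1 with Camk2d and for Camk2d with Camk2a.

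Stimulation at 1 and 4 Hz was accompanied by higher transcript levels of 3 of the 4 kinase II genes, while Camk2g, the most abundant of them, and both calmodulin members did not pass the test. At 1 Hz, 4 of 9 members were upregulated (Camk2a, Camk2b, Camk2d, and Camk1d) and none was downregulated. At 4 Hz, 4 of 9 were upregulated (Camk2a, Camk2b, Camk2d, and Camk1) and none was downregulated. At 10 Hz only Camk2a was upregulated. Calls are Benjamini-Hochberg adjusted p-values below 0.05 from edgeR's quasi-likelihood test, adjusted over all genes tested. Over all genes, 18.1% were higher and 17.3% lower at 1 Hz, 19.2% higher and 20.2% lower at 4 Hz, and 2.67% higher and 2.22% lower at 10 Hz. The median log2 fold change of the 9 members was 0.16, 0.31, and 0.09 at 1, 4, and 10 Hz, beside -0.01 over all genes at each frequency. These counts and medians are a description, since the members were chosen with earlier results of these data known. RNA of whole tissues cannot tell fewer fibers from less RNA per fiber.

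**Figure D1:**
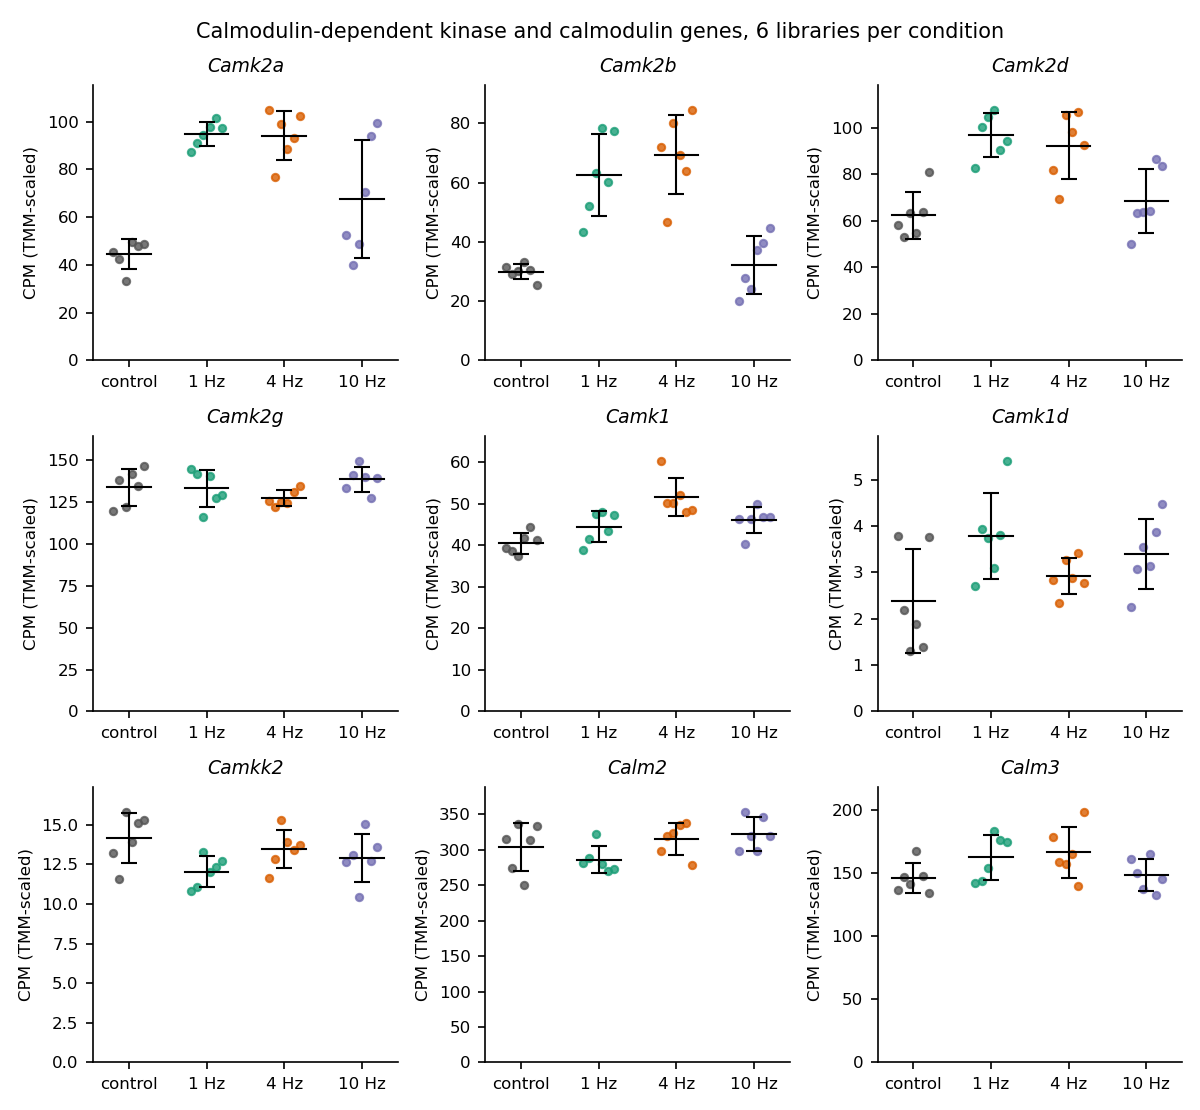
Levels of the 9 members in every library, in CPM (TMM-scaled, y axes from 0) for the 6 libraries of each condition (x axis), with the mean (line) and SD (bar). Camk2a and Camk2b at 1 and 4 Hz lie above every control library, the 10 Hz libraries of Camk2a spread from 40.0 to 99.6 CPM, and Camk2g lies between 116 and 150 CPM throughout.

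Camk2a, which encodes the α subunit of kinase II, had a lowest, median, and highest level of 33.3, 46.8, and 49.6 CPM in control (CPM, counts scaled to a fixed library size with TMM factors). The corresponding values were 87.1, 95.9, and 101.5 CPM at 1 Hz and 77.0, 96.1, and 105.1 CPM at 4 Hz. Neither stimulated group overlapped control. The log2 fold change was 1.09 ± 0.16 (SE, edgeR adjusted p = 1.9e-05) at 1 Hz and 1.08 ± 0.16 (adjusted p = 1.2e-05) at 4 Hz. At 10 Hz the libraries ranged from 40.0 to 99.6 CPM with a median of 61.6 CPM, and 4 of 6 lay above all controls. The log2 fold change at 10 Hz was 0.60 ± 0.16 (edgeR adjusted p = 0.028). This call was lost on leaving out control library 2 or 3 or 10 Hz library 4, 5, or 6, each in turn, where the highest adjusted p was 0.092.

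Camk2b encodes the β subunit, which links the kinase to actin filaments. Its lowest, median, and highest levels were 25.3, 30.4, and 33.1 CPM in control and 43.4, 61.9, and 78.3 CPM at 1 Hz. At 4 Hz they were 46.7, 70.6, and 84.7 CPM, and at 10 Hz 20.0, 32.5, and 44.8 CPM. The 1 and 4 Hz libraries all lay above control, whereas the 10 Hz libraries lay on both sides of it. On the log2 scale Camk2b rose by 1.06 ± 0.17 at 1 Hz (SE, adjusted p from edgeR 5.5e-05) and, at 4 Hz, 1.21 ± 0.17 (adjusted p = 7.1e-06). At 10 Hz the log2 fold change was 0.09, with a 95% confidence interval of -0.27 to 0.45 (edgeR adjusted p = 0.82).

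Camk2d, the δ subunit gene, moved by less. Control libraries had 53.2, 60.7, and 81.2 CPM as lowest, median, and highest, 1 Hz libraries 82.7, 97.4, and 107.8 CPM, and 4 Hz libraries 69.4, 95.3, and 106.6 CPM. All 1 Hz libraries exceeded all controls, and 5 of 6 did at 4 Hz. Camk2d was upregulated by 0.64 ± 0.13 on the log2 scale (SE, edgeR adjusted p = 0.00036) at 1 Hz and by 0.57 ± 0.12 (adjusted p = 0.00080) at 4 Hz. The 10 Hz libraries ran from 49.9 to 86.5 CPM (median 64.0), a log2 fold change of 0.14 with an interval of -0.12 to 0.39 (edgeR adjusted p = 0.58).

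Camk2g, the γ subunit gene, was the exception in the family. Its medians were 136, 135, 125, and 140 CPM in control, 1, 4, and 10 Hz, and the groups overlapped. Against control, the 95% intervals of its log2 fold change were -0.15 to 0.13 at 1 Hz, -0.21 to 0.06 at 4 Hz, and -0.09 to 0.19 at 10 Hz.

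**Figure D2:**
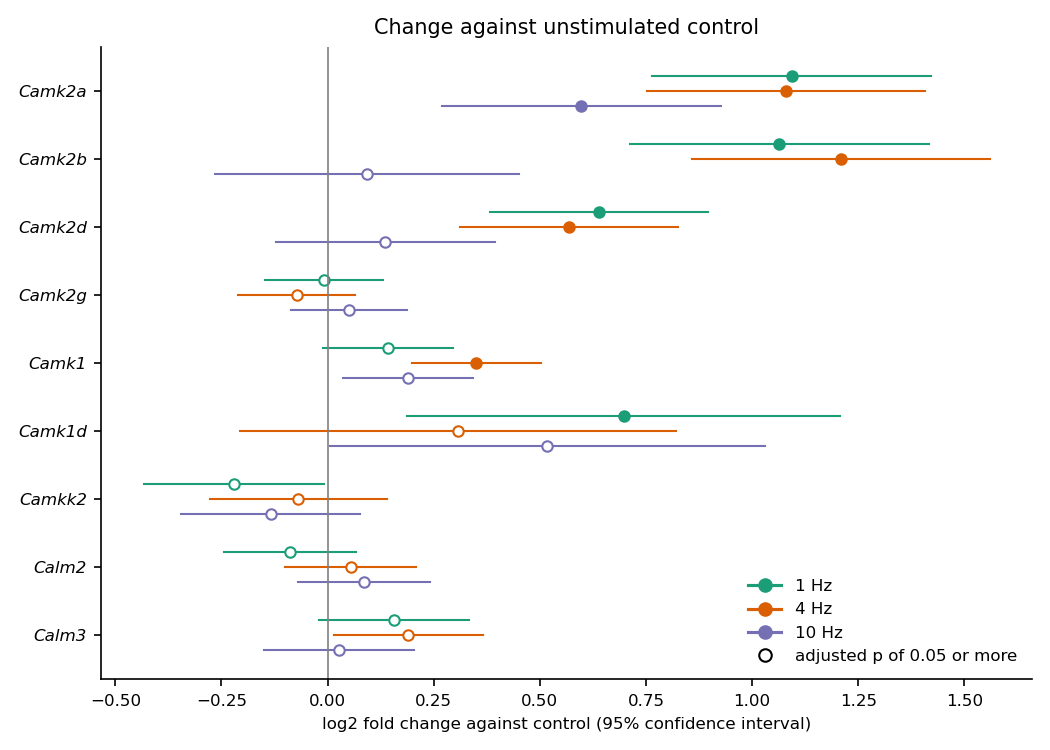
Log2 fold change against control (x axis) for the 9 members (y axis) at 1, 4, and 10 Hz, with 95% confidence intervals from the edgeR fit and filled points for adjusted p below 0.05. Camk2a and Camk2b lie near 1 at 1 and 4 Hz, and the intervals of Camk2g and Calm2 include 0 at all frequencies.

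The kinase I genes gave smaller or less certain differences. Camk1 had 37.5, 40.3, and 44.4 CPM as lowest, median, and highest in control and 48.0, 50.2, and 60.4 CPM at 4 Hz, with no overlap. In TPM the same groups overlapped, at 38.5 to 48.3 in control and 44.1 to 54.7 at 4 Hz. The log2 fold change of Camk1 at 4 Hz was 0.35 ± 0.07 (SE, edgeR adjusted p = 0.00056). Tested with limma on log2(TPM + 1) values, it was 0.13 and was not called (adjusted p = 0.14). The median over all genes in that setting was -0.16. The call of Camk1 at 4 Hz held in 7 of 11 fits with other settings and on leaving out each library in turn. At 1 Hz (median 45.4 CPM) and 10 Hz (median 46.6 CPM) the log2 fold changes of Camk1 were 0.14 (edgeR adjusted p = 0.14) and 0.19 (adjusted p = 0.14). Camk1d had few reads, with 6 to 20 reads per control library and 14 to 55 per 1 Hz library. Its levels were 1.31 to 3.78 CPM in control and 2.70 to 5.41 CPM at 1 Hz, which overlapped. The log2 fold change of Camk1d at 1 Hz was 0.70 ± 0.25 (SE, edgeR adjusted p = 0.030), and the call was lost on leaving out control library 3, 4, or 5 or 1 Hz library 6 (highest adjusted p 0.098). Of 8 other settings that gave it a value, 3 made the call (adjusted p from 0.022 to 0.91).

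In the edgeR fit Camkk2, whose product phosphorylates kinase I and the energy sensor AMPK, was the only member with a negative log2 fold change at all 3 frequencies. None passed the test. Mean TPM of Camk2g was also below control (68.5) at 1, 4, and 10 Hz (65.1, 59.5, and 64.2). For Camkk2 the control libraries had 11.6, 14.5, and 15.8 CPM as lowest, median, and highest, and the 1 Hz libraries 10.8, 12.2, and 13.3 CPM. The log2 fold changes were -0.22 (95% interval -0.43 to -0.01, edgeR adjusted p = 0.099) at 1 Hz, -0.07 (adjusted p = 0.62) at 4 Hz, and -0.13 (adjusted p = 0.49) at 10 Hz.

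The calmodulin members were not called against control at any frequency. Calm2 had medians of 314, 281, 322, and 319 CPM in control, 1, 4, and 10 Hz, and its log2 fold changes lay between -0.09 and 0.08 against control, with intervals from -0.24 to 0.24. Calm3 had medians of 145, 165, 163, and 148 CPM. Its log2 fold changes were 0.16 (edgeR adjusted p = 0.16), 0.19 (adjusted p = 0.079), and 0.03 (adjusted p = 0.90). At 4 Hz the 95% interval of Calm3, 0.01 to 0.37, lay above 0. In TPM the means of Calm3 were 108 in control, 115 at 1 Hz, 99.8 at 4 Hz, and 94.9 at 10 Hz. The direction at 4 and 10 Hz thus depended on the unit. The TPM of Calm2 and Calm3 summed to 601 ± 24.7 in control, 627 ± 46.9 at 1 Hz, 622 ± 42.7 at 4 Hz, and 613 ± 36.6 at 10 Hz (SD, n = 6 each).

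The makeup of the kinase II transcript pool followed from these differences and is given as a description. Camk2g held 50.2 ± 3.12% of the summed kinase II TPM in control (SD, n = 6), 33.9 ± 3.73% at 1 Hz, and 34.1 ± 5.57% at 4 Hz, where the highest libraries (38.6% and 41.5%) lay below the lowest control (45.1%). At 10 Hz its share was 45.2 ± 6.53%. Camk2a took 17.9 ± 2.82% in control, 27.7 ± 1.97% at 1 Hz, 25.9 ± 2.42% at 4 Hz, and 23.1 ± 5.83% at 10 Hz. Camk2b took 9.19 ± 1.04%, 13.4 ± 1.87%, 14.8 ± 2.21%, and 8.71 ± 1.70% in the same order. The share of Camk2d overlapped between all conditions, with means of 22.7% to 25.1%. The summed TPM of the 4 genes was 137 ± 14.7 in control, 193 ± 15.3 at 1 Hz, 175 ± 14.6 at 4 Hz, and 145 ± 22.3 at 10 Hz. Calm2 and Calm3 transcripts together outnumbered kinase II transcripts 4.43 ± 0.491 to 1 in control and 3.25 ± 0.0972 to 1 at 1 Hz, with 3.58 ± 0.499 at 4 Hz and 4.31 ± 0.608 at 10 Hz.

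**Figure D3:**
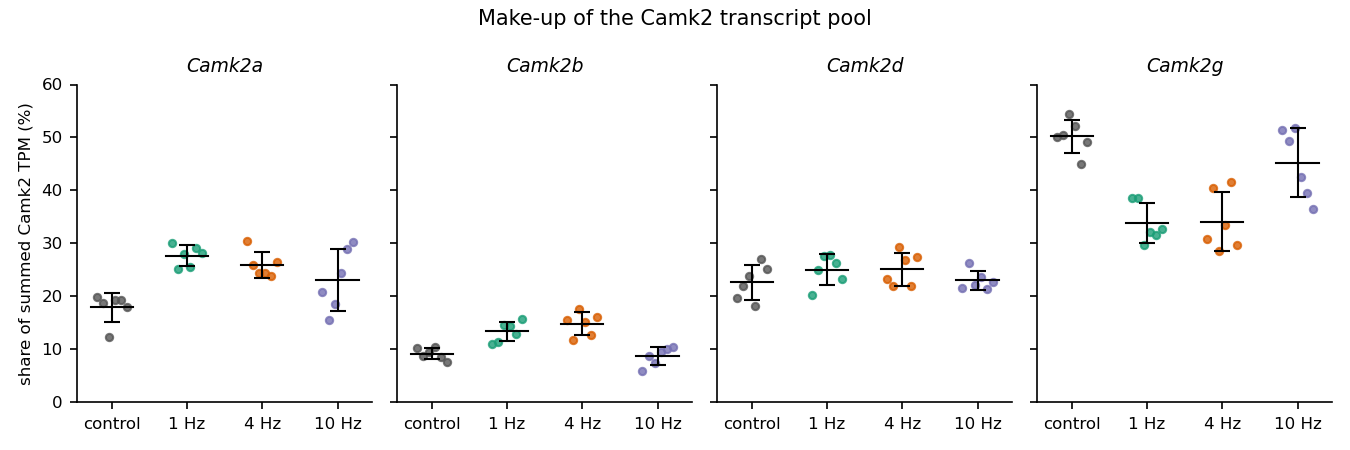
Share of the summed kinase II TPM held by each of the 4 genes (y axis, percent) in the 6 libraries of each condition (x axis), with mean (line) and SD (bar). The Camk2g share at 1 and 4 Hz lies below every control library, and the Camk2a share at both lies above.

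Comparisons between frequencies showed where the stimulated groups differed. No member was called between 4 and 1 Hz, where 5.71% of all genes were higher and 6.56% lower. The nearest was Camk1, whose 6 libraries at 4 Hz all lay above those at 1 Hz (log2 fold change 0.21, edgeR adjusted p = 0.060). Against 1 Hz, Camk2a, Camk2b, and Camk2d were lower at 10 Hz, 3 of 9 members, beside 17.7% of all genes higher and 18.5% lower. The log2 fold changes were -0.50 for Camk2a (edgeR adjusted p = 0.014), -0.97 for Camk2b (adjusted p = 9.0e-05), and -0.50 for Camk2d (adjusted p = 0.0025). The same 3 were lower at 10 Hz than at 4 Hz, where 10.9% of all genes were higher and 11.9% lower. There the log2 fold changes were -0.48 for Camk2a (edgeR adjusted p = 0.025), -1.12 for Camk2b (adjusted p = 0.00011), and -0.43 for Camk2d (adjusted p = 0.013). For Camk2a the call against 4 Hz was lost on leaving out 4 Hz library 1 or 10 Hz library 1, 2, or 3 (highest adjusted p 0.073). Each stimulated group enters several of these comparisons, so they are not independent of one another.

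Library composition moved with these results. Small RNAs without poly(A) tails (32 of 34 listed were found) held 99.0 to 169 CPM in control but 15.6 to 70.2 CPM at 1 Hz and 19.5 to 51.1 CPM at 4 Hz, without overlap, so that a difference in library preparation and the stimulation cannot be told apart. The labels state that low-input samples were prepared by ribodepletion in place of poly(A) selection and do not say which. At 10 Hz the small RNAs spread from 38.5 to 274 CPM. In 10 Hz libraries 1 to 6 they were at 178, 274, 112, 99.2, 67.3, and 38.5 CPM, while Camk2a was at 52.6, 40.0, 48.8, 70.6, 94.1, and 99.6 CPM. The 2 libraries with the least small RNA had the most Camk2a, and also the most Camk2b, at 39.8 and 44.8 CPM. With the small RNA level as a covariate, Camk2a at 10 Hz was the only member called against control at any frequency, with an adjusted p of 0.047. For 1 Hz the log2 fold change of Camk2a in that fit was 0.48 (adjusted p = 0.42), and for 4 Hz 0.48 (adjusted p = 0.22). At 1 Hz, the values were 0.43 for Camk2b and 0.36 for Camk2d, and at 4 Hz 0.61 and 0.30. The log2 fold change of Camk2a at 10 Hz became -0.02 against 1 Hz (adjusted p = 0.97) and -0.02 against 4 Hz (adjusted p = 0.99), with -0.45 and -0.63 for Camk2b and -0.28 and -0.22 for Camk2d, none called. The loss was not particular to these genes. Over all 13318 genes that fit called 1 higher and 0 lower at 1 Hz, and 151 and 110 at 4 Hz. It called 74 and 151 for 10 against 1 Hz. For 10 against 4 Hz it called 0 and 0, with 940 genes at an unadjusted p below 0.05. Counts stayed near those without the covariate for 10 Hz against control (307 and 312, in place of 356 and 295). The same held for 4 against 1 Hz (798 and 898, in place of 761 and 873). Mean small RNA levels were close in both pairs, at 135 CPM in control and 128 CPM at 10 Hz, and 30.6 CPM at 1 Hz and 28.6 CPM at 4 Hz. The covariate could therefore change these comparisons little, and the kept counts are no check of them. Without 10 Hz libraries 5 and 6, a choice made after the data were seen, Camk2a at 10 Hz was no longer called (log2 fold change 0.26, edgeR adjusted p = 0.28), while Camk2a, Camk2b, and Camk2d were still called lower than at 1 and 4 Hz in that fit, which has no covariate.

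**Figure D4:**
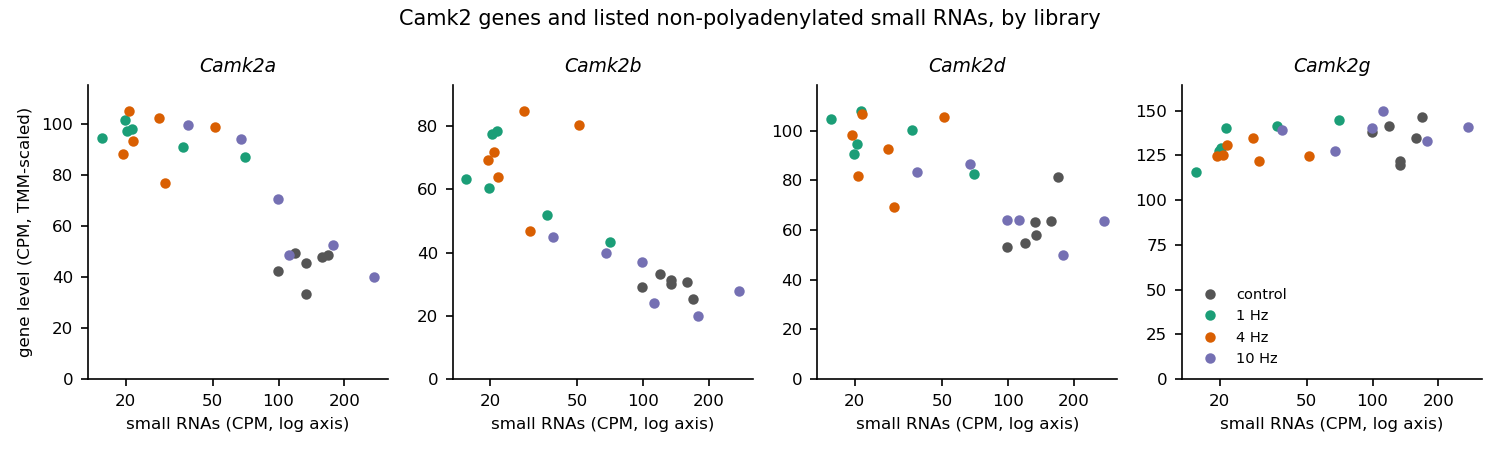
Level of each kinase II gene (y axis, CPM, from 0) against the summed listed small RNAs (x axis, CPM, log axis) in the 24 libraries, colored by condition. Control libraries lie at 99.0 CPM of small RNA or more, the 1 and 4 Hz libraries at 70.2 CPM or less, and the 10 Hz libraries on both sides.

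Most markers of fibers moved as well, and the tissues, which the labels call myoblasts, expressed them at high levels. The summed level of 7 marker genes of differentiated fibers was 6252 to 7893 CPM in control, 8869 to 12213 CPM at 1 Hz, 9122 to 14029 CPM at 4 Hz, and 6703 to 9803 CPM at 10 Hz, and its part in the kinase II results was not tested. Acta1 carried much of the sum, with means of 2889 CPM in control and 4954 CPM at 1 Hz. Of the 7, Acta1, Myh3, Des, Tnnt3, and Myog were called higher at 1 and 4 Hz. Ckm (log2 fold changes 0.25 and 0.28) and Ttn (0.06 and 0.11) were not called there. Against control at 10 Hz, Myh3 (0.82, edgeR adjusted p = 0.012) and Myog (0.62, adjusted p = 0.014) were called higher, and the others were not called. The summed level of 6 markers of undifferentiated or cycling myoblasts was 32.5 to 61.7 CPM over all libraries, with calls in both directions. At 1 Hz Pax7 was higher (0.99) and Cdk1 lower (-0.38), and at 4 Hz Pax7 (1.04), Mki67 (1.28), and Top2a (0.69) were higher and Myf5 (-0.61) and Cdk1 (-0.38) lower on the log2 scale. Neuronal markers Rbfox3, Snap25, and Syt1 had means of at most 0.24 CPM, although kinase II α and β are best known from neurons. A further listed marker, Slc17a7, a glutamate transporter, was at 4.67 CPM in control, 7.43 CPM at 1 Hz, 6.98 CPM at 4 Hz, and 3.79 CPM at 10 Hz, and was called higher at 1 Hz (log2 fold change 0.66, edgeR adjusted p = 0.0086) and 4 Hz (0.57, adjusted p = 0.019) and lower at 10 Hz than at both. Its part in the kinase II results was not tested. Total counts ranged from 4.09 to 15.2 M per library (median 7.48 M). Depth differed between conditions, with means of 5.67 M in control and 8.16, 9.12, and 8.19 M at 1, 4, and 10 Hz. The part of depth in these results was not tested.

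Beyond the members, 58 genes of calmodulin signaling were listed, also with earlier results of these data known. Of the 58, 41 were tested and 17 were too low. Of these 41, 14 were higher and 3 lower at 1 Hz, 13 higher and 3 lower at 4 Hz, and 2 higher and 0 lower at 10 Hz. Of all genes tested, 18.1% were higher and 17.3% lower at 1 Hz, 19.2% and 20.2% at 4 Hz, and 2.67% and 2.22% at 10 Hz. Among 18 substrates and effectors of the kinases, 8 rose and 1 fell at 1 Hz, 7 rose and 1 fell at 4 Hz, and 1 rose at 10 Hz. The largest increases at 1 Hz were in Mef2c, a muscle transcription factor (log2 fold change 0.82), Crtc1, a coactivator of CREB (0.78), and Hdac9, a class II histone deacetylase (0.74). At 4 Hz the same genes led, at 0.90, 0.94, and 1.00, and Crtc1 was the one called at 10 Hz (0.55). Prkaa1, a catalytic subunit of AMPK, fell by 0.37 at 1 Hz and by 0.38 at 4 Hz. At 10 Hz against 1 Hz, 8 of the 18 were lower and 1 higher, beside 18.5% and 17.7% of all genes, led by Hdac4, another class II histone deacetylase, at -0.87 (edgeR adjusted p = 1.1e-05).

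Of 24 other enzymes that calmodulin regulates, 16 were tested, with 5 up and 2 down at 1 Hz, 6 up and 1 down at 4 Hz, and 1 up at 10 Hz. Some myosin light chain kinases were among those up, Mylk at 1.31 and 1.14 and Mylk4 at 0.80 and 0.91 (log2) at 1 and 4 Hz. Mylk4 was also up at 10 Hz (0.71), whereas Mylk2, a further such kinase gene, was tested and not called against control at any frequency. Phkb, a subunit of phosphorylase kinase, the enzyme that starts glycogen breakdown, rose by 0.78 and 0.83. Pde1b, a calmodulin-dependent phosphodiesterase, fell by 0.99 at 1 Hz and by 1.47 at 4 Hz, and Phkg1 fell by 0.85 at 1 Hz. Of 5 tested regulators, Camk2n1, an inhibitor of kinase II, rose at 1 Hz (0.58, edgeR adjusted p = 0.029) from a low level of 3.28 CPM. At 4 Hz its log2 fold change was 0.50, just short of a call (edgeR adjusted p = 0.052). Gap43, a regulator that binds calmodulin, fell by 0.88 at 4 Hz. Calml4, a calmodulin-like gene at 2.63 CPM in control, was tested and not called. Its log2 fold changes were 0.57 at 1 Hz (edgeR adjusted p = 0.087), 0.60 at 4 Hz (adjusted p = 0.061), and 0.49 at 10 Hz (adjusted p = 0.28). Camkk1, the only 1 tested of 5 further genes of the kinase I, II, and IV families and their upstream kinases, had log2 fold changes of 0.23, 0.27, and 0.04 and was not called.

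**Figure D5:**
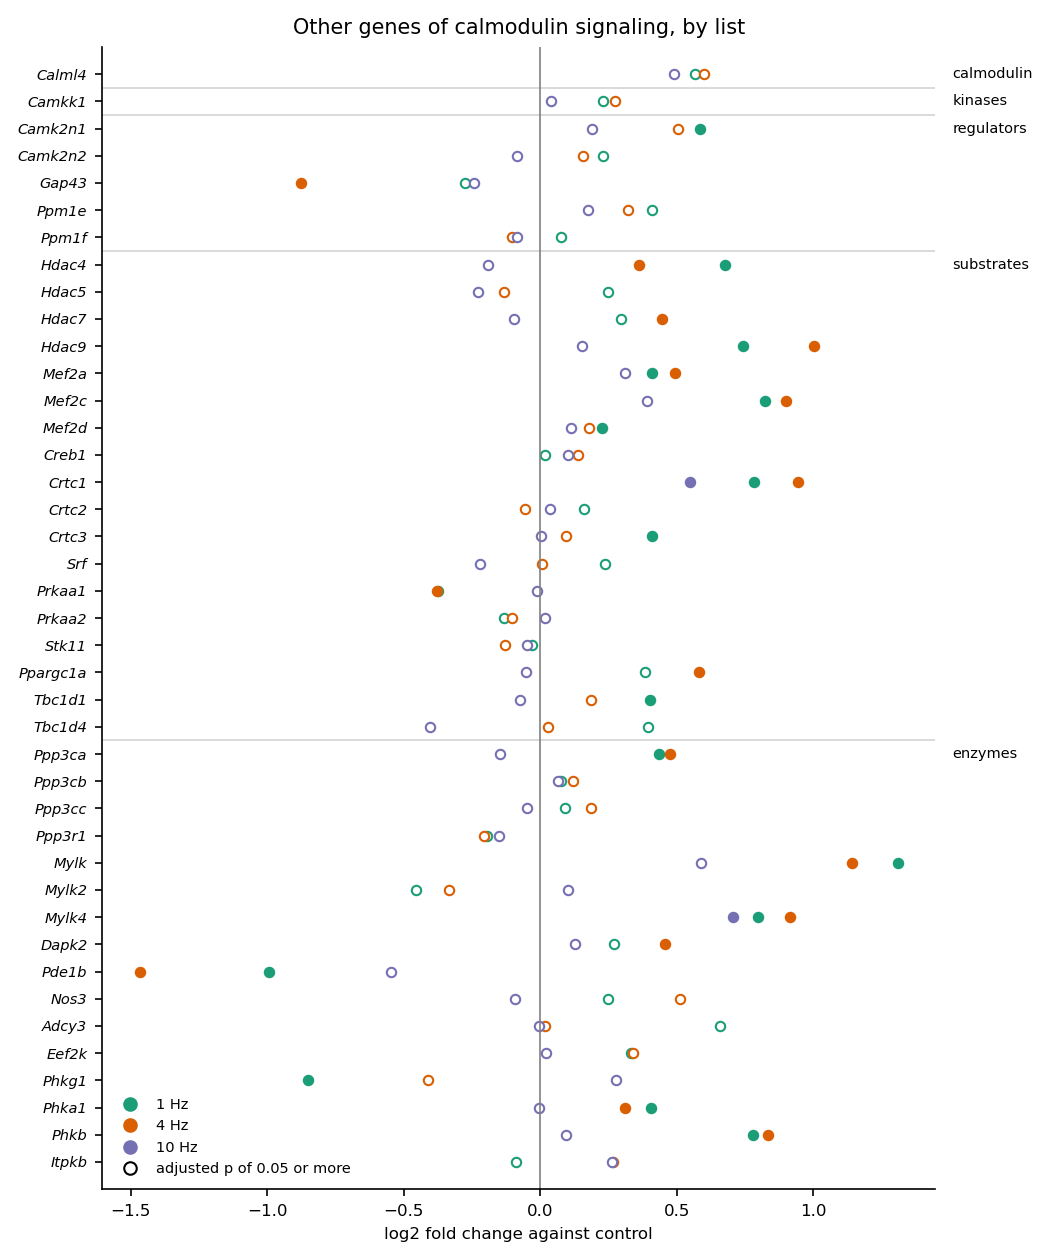
Log2 fold change against control (x axis) of the 41 tested genes of calmodulin signaling outside the members, grouped by list (y axis), with filled points for edgeR adjusted p below 0.05. Most filled points belong to 1 and 4 Hz, with 2 at 10 Hz.

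Camk2b had the smallest p of the members over the 4 conditions, at rank 172 of 13318 genes in the edgeR test over the 3 comparisons with control, ahead of Camk2a (540), Camk2d (1624), and Camk1 (3577). Among the genes whose log2 CPM followed Camk2b most closely over the 24 libraries, of 8995 genes ranked, were Nfatc1 (Pearson r = 0.955) and Myh2 (0.950). After condition means were removed, r was 0.873 and 0.816. These libraries share conditions and the composition differences above, so the values are a description.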

How the data were processed

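RNA of 24 tissues (6 in each condition) was sequenced, with groups read from the titles. Libraries were made by the authors from poly(A) RNA, with ribodepletion for unnamed low-input samples, and their reads were processed with the nf-core/rnaseq pipeline (STAR and salmon) against GRCm39. The kit was directional and the annotation was from Ensembl, while its release and the strand setting in counting were not given in the sources used here. Deposited values were salmon expected counts (estimated counts per gene, not normalized) and TPM that the authors computed. Estimated counts were rounded. Genes were filtered with filterByExpr, scaled by TMM, and tested with edgeR 4.0.16 (glmQLFit, glmQLFTest; R 4.3.3) with 1 model of the 24 libraries and condition as its factor. Adjusted p-values are over all 13318 genes tested. Total counts of 4.09 to 15.2 M per library set the counting error. SDs are between libraries, which the study describes as 6 biological replicates per condition, all of 1 cell line. No pair within a condition was a copy (chi-square per gene at least 3.31).

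All members are named. Of the other lists, called genes of largest absolute log2 fold change in each direction (up to 3 a list) could be named, and of genes like Camk2b the 3 with the highest r and at least 10 CPM. Some genes that the rules would name or list are not reported here. The members and lists were chosen with earlier results of these data known. On simulated data for 1 Hz against control (13141 genes, 200 changed by a log2 fold change of 1), edgeR recovered 78.0% of changed genes with 6.02% of calls false. Alternatives were other scalings and filters, DESeq2 1.42.0 (the tool of the study), limma 3.58.1 on log2(TPM + 1) and log2(TPM + 0.1), which understates changes of low genes, only the 12 libraries compared, a replicate block, small RNAs as a covariate, an added threshold of 0.5 on the log2 fold change, and leaving out each library. Sequences came from GRCm39 with the GENCODE M39 annotation.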

Additional observations from a re-analysis of the deposited data

Results flagged for a closer look

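Among 36 groups of 6 libraries (9 members in 4 conditions), 4 held a library whose gap to its nearest neighbor was large for the range of the group, where chance gives about 1 in 20 groups. Camk2d was at 81.2 CPM in control library 6, with the next at 63.7 CPM. Camk1 was at 60.4 CPM in 4 Hz library 1, with the next at 52.0 CPM, and at 40.3 CPM in 10 Hz library 2, with the next at 46.3 CPM. Calm2 was at 323 CPM in 1 Hz library 3, the deepest library, with the next at 289 CPM.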

How the results depend on the processing

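The main counts of members called were 4 at 1 Hz, 4 at 4 Hz, and 1 at 10 Hz against control, 0 for 4 against 1 Hz, and 3 each for 10 against 1 Hz and 10 against 4 Hz. With the small RNA covariate these were 0, 0, 1, 1 (Camk1), 0, and 0. For 10 Hz against control the count was 0 with limma on TPM (each pseudocount, and without the filter), with only the 12 libraries compared (which also ended the Camk2a call for 10 against 4 Hz), and with 10 Hz libraries 1 to 4 only. For 4 against 1 Hz it was 1 (Camk1) with a minimum of 5 CPM and with DESeq2. For 10 against 4 Hz it was 1 (Camk2b) in the 3 limma settings and with the added threshold of 0.5, which also ended the calls of Camk1 at 4 Hz and Camk2a for 10 against 1 Hz. The 1 Hz count was 3 in 6 settings, the 3 with limma, a minimum of 5 CPM, no filter, and only the 12 libraries, and total count scaling called Camkk2 there in place of Camk1d. Leaving out 1 library gave 3 to 4 at 1 Hz, 4 to 5 at 4 Hz, 0 to 1 at 10 Hz, 0 to 1 for 4 against 1 Hz (1, Camk1, without 4 Hz library 6), 3 for 10 against 1 Hz, and 2 to 3 for 10 against 4 Hz. No called member changed sign in any alternative. With a minimum of 5 CPM and in the limma fits filtered at a mean of 1 TPM, Camk1d was too low to be tested. The cause of the other lost calls was not tested. Limma on log2(TPM + 1) put the all-gene median at 4 Hz at -0.16, with 1205 genes higher and 3975 lower. Scaling by total count moved the all-gene median (log2) at 4 Hz from -0.01 to -0.11, with 1864 genes higher and 3776 lower in place of 2558 and 2693, and at 1 Hz gave 1785 higher and 3108 lower in place of 2414 and 2306. With the replicate number as a block the counts were 4, 4, 1, 0, 3, and 3. The numbers were not taken to pair the libraries, since 10 of 36 same-number pairs had a correlation of deviations over 0.1, beside 49 of 180 pairs with other numbers. As a hint from the data, 10 of 24 libraries correlated best with their own number, where 4 would with no pairing. Of 39 member comparisons that were not called, 902 refits gave 15 calls, none with a change of sign. Depth limited Camk1d most, with as few as 6 reads in a library.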
